A study of Mus musculus with 2 samples.

Results

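Somatostatin (*Sst*) interneurons were examined in 2 droplet-based single-cell RNA sequencing libraries of mouse cerebral cortex, 1 from control mice and 1 from mice with cerebral white matter injury (WMI). In such libraries a barcode marks the cell, and a unique molecular identifier (UMI) lets each captured RNA molecule be counted once. Members were selected on their measured UMIs, and a barcode was an *Sst* interneuron with at least 2 of *Gad1* and *Gad2* together, at least 2 of *Sst*, at least 1 of *Nxph1* and *Lhx6* together, at most 1 of *Slc17a7* and at most 2 of *Adarb2*. Only barcodes with at least 1000 UMIs, at least 500 genes and at most 10% UMIs of mitochondrially encoded genes were considered. Of 17653 such barcodes, 106 were members, 48 of them control and 58 of them WMI cells.

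All mice were of the C57BL/6 strain. The sample labels give the WMI group ligation of the right common carotid artery at postnatal day 7 with 1 h of hypoxia. They give collection of the cortex at postnatal day 14, age 2 weeks, from the ligated side or from the same side of control animals. Day 7 and 1 h are also recorded for the control library, and which of these steps the control mice underwent was not assumed. The methods of the study instead give ligation at postnatal day 3 and exposure to 6% oxygen for 90 min, with sampling at postnatal day 10. The paper speaks of control and WMI sides or hemispheres of the cortex, and whether both libraries share mice is not stated. The labels speak of nuclei and the methods of trypsin-dissociated cells, and neither version was assumed here. The study describes 4 replicates per group, but 1 library per group was analysed, so no test between control and WMI could be made. Every interval below is a 95% interval that covers counting error only and leaves out the variation between mice. The intervals of levels and of ratios are made from summed UMIs, so they also leave out the variation between cells. The paper gives a number of animals per group, but how many of them each library holds is not stated.

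The control library held 66470806 UMIs in 10288 barcodes and the WMI library 60568639 UMIs in 8354 barcodes. The *Sst* interneurons carried 501462 and 593003 of these UMIs. Depth per control member ran from 1829 to 19172 UMIs (median 10495), and depth per WMI member from 3818 to 20695 (median 9293.5). The ranges of depth overlapped widely. The 2 libraries shared 34 barcodes that passed the limits, and none of them was a member.

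Cortical *Sst* interneurons are inhibitory neurons that arise in the medial ganglionic eminence of the embryonic brain, where the transcription factors Nkx2-1, Lhx6, Sox6 and Satb1 act in sequence. They release GABA, which is made by the glutamate decarboxylases of *Gad1* and *Gad2*, together with the peptide somatostatin. Many of them are Martinotti cells, whose axons climb to layer 1 and contact the distal dendrites of pyramidal cells. A small further group makes the peptide neuropeptide Y and nitric oxide synthase and sends long axons. During the first postnatal weeks, when the tissue was taken, these cells are still forming synapses.

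*Sst* lies on chromosome 16 on the minus strand. The 300 bases around its start, chr16:23890795-23891094 of GRCm38.p6 from RefSeq, are shown because this gene names the class. They are written 5′ to 3′ with the start after base 250, and the capitals mark the cAMP response element TGACGTCA, which was found once in the window.

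Sst promoter: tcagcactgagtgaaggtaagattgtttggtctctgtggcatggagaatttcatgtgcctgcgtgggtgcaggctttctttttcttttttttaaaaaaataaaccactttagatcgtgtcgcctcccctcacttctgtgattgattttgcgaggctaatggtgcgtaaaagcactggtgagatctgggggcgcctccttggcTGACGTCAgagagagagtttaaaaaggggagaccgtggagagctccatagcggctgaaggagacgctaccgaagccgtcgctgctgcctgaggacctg

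The element begins 48 bases before the start, and the palindrome reads the same on both strands. It was present in 507 of 27025 RefSeq promoter windows of the same length (1.88%). This match describes the letters of the window and not a site in use.

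The genes of the rule had to be present in the members and are given as a description. Control members had 2 to 39 *Sst* UMIs (median 5) and WMI members 2 to 51 (median 5). In the control library 13 members had 2 *Sst* UMIs and 12 had at least 10, against 17 and 17 in the WMI library. The plot of *Sst* UMIs against depth shows the members at the limit among both shallow and deep cells. *Nxph1*, which encodes a secreted ligand of neurexins, was found in every member with a median of 25 UMIs (control) and 26.5 UMIs (WMI). *Lhx6*, the transcription factor of the lineage, was found in 21 of 48 and 20 of 58 members, and the others met this part of the rule through *Nxph1* alone.

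**Figure D1:**
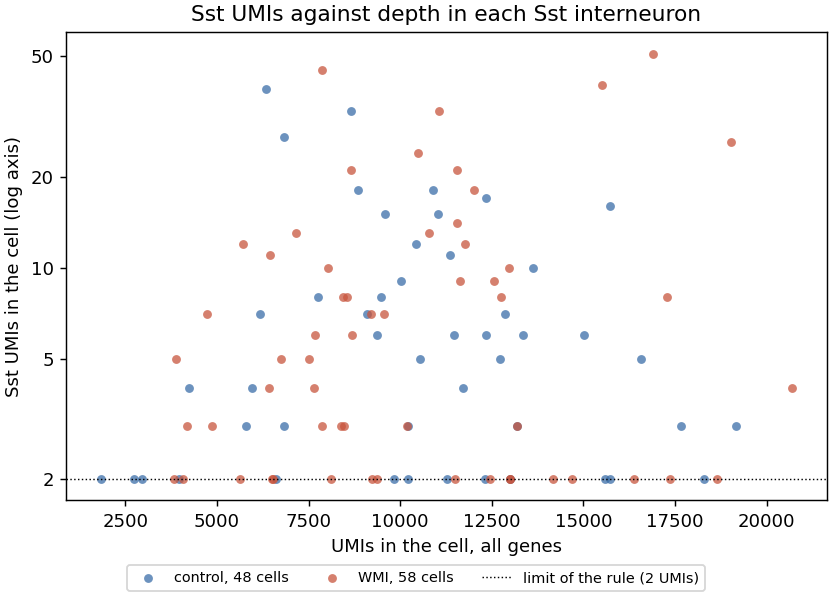
Each point is 1 *Sst* interneuron, with its UMIs of all genes on the horizontal axis and its *Sst* UMIs on a log vertical axis, coloured by library. The dotted line marks the limit of 2 UMIs, on which 13 control and 17 WMI members lie, and the highest members have 39 and 51 *Sst* UMIs.

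*Sst* RNA was also found in cells that should lack it. At least 1 *Sst* UMI was counted in 22.7% of 1552 control and 19.9% of 1258 WMI excitatory neurons (median depths 10308.5 and 11166.5 UMIs), which were gated on at least 3 *Slc17a7* UMIs, no *Gad1* or *Gad2* UMI and at most 1 *Sst* UMI, so that their share leaves out cells with more. It was counted in 18.7% of 166 control and 13.6% of 516 WMI microglia (median depths 3195.5 and 3311.5). At least 2 UMIs, the limit of the rule, were counted in 3.61% and 1.74% of the microglia. The members held 378 of 3405 *Sst* UMIs of the control barcodes that passed (11.1%) and 539 of 3058 in the WMI library (17.6%). Single *Sst* UMIs were thus common outside the class in both libraries, and a member with 2 UMIs is less sure than one with 10.

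Barcodes just outside the limit had 1 *Sst* UMI and met every other part of the rule, 65 of them control and 19 of them WMI barcodes. *Elfn1*, which encodes a synaptic adhesion protein typical of *Sst* cells and was not used by the rule, stood at 95.2 CPM (UMIs per 1000000 UMIs) in these 65 barcodes, at 177 CPM in control members with 2 *Sst* UMIs and at 371 CPM in those with 4 or more. In the WMI library it was at 0 of the UMIs of the 19 barcodes outside (which allows up to 16.2 CPM), at 92.2 CPM at 2 *Sst* UMIs and at 228 CPM at 4 or more. *Npy* stood at 28.4, 80.4 and 246 CPM in the control groups and at 4.38, 21.7 and 478 CPM in the WMI groups. The point values of both genes were higher inside the limit than outside it in each library, but between 1 and 2 *Sst* UMIs the intervals overlapped for *Npy* in both libraries and for *Elfn1* in the control library (72.1 to 123 and 111 to 268 CPM). *Nxph1*, a gene of the rule, stood at 2551, 2791 and 2422 CPM among control barcodes and at 2674, 2923 and 3429 CPM among WMI barcodes.

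The rule also left out barcodes with much *Sst*. Of 23 control and 43 WMI barcodes with at least 10 *Sst* UMIs, 12 and 17 were members. The others most often had more than 2 *Adarb2* UMIs (5 and 14 barcodes) or more than 1 *Slc17a7* UMI (5 and 10).

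The label was checked with 10 interneuron genes that the rule did not use, set against excitatory neurons only. All 10 were higher in the members than in excitatory neurons in both libraries, and 9 were at least 2-fold higher in both. Such a comparison cannot tell *Sst* interneurons from other interneurons. *Sox6*, a transcription factor of the lineage, was found in 43 of 48 and 55 of 58 members and was 3.62 (control) and 2.98 (WMI) higher on the log2 scale than in excitatory neurons. *Grik1*, a kainate receptor subunit of interneurons, was found in 46 and 56 members and was 4.37 and 4.22 higher. *Maf*, a transcription factor of *Sst* cells, was 4.79 and 4.25 higher. The exception was *Satb1*, at 1.14 in the control and 0.78 in the WMI library. *Nkx2-1* had 0 UMIs in the control and 1 in the WMI members, and *Lhx8* had 0 and 0. *Pvalb* and *Vip*, which mark other interneurons, had 3 and 7 UMIs in the control members and 0 and 5 in the WMI members. The label is less sure for 8 WMI members with at least 5 *Meis2* UMIs each, described below. Of these, 7 had at most 10 *Nxph1* UMIs and 7 had no *Elfn1* UMI.

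The members were 0.503% of the control barcodes that passed (interval 0.371 to 0.667) and 0.715% of the WMI barcodes (0.543 to 0.923), a ratio of 1.42 (0.953 to 2.13). The interval of this ratio includes no difference. It no longer did so without predicted doublets, which left 37 control and 52 WMI members. Set against interneurons of the same lineage without *Sst* (no *Sst* UMI, at least 2 UMIs of *Nxph1* and *Lhx6*), the members were 26.4% of 182 control (20.1 to 33.4) and 48.7% of 119 WMI (39.5 to 58.1) interneurons, a ratio of 1.85 (1.24 to 2.77). The interneurons without *Sst* that enter this ratio numbered 134 and 61. Barcodes with 1 *Sst* UMI that met the other limits (65 control and 19 WMI) entered neither side. The intervals of both ratios of shares treat the totals as fixed, although the members are part of them. With 1 *Sst* UMI as the limit the members were 113 and 77 and the first ratio turned below 1 (log2 −0.32, against 0.51 with the rule), while the second was 0.29 on this scale (0.89 with the rule). The shares depend on how nuclei or cells were captured in each library, which cannot be told apart from the condition.

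Against the interneurons without *Sst*, 4386 genes had at least 100 UMIs over both classes and libraries. In both libraries, 47 of them (1.07%) were at least 2-fold higher in the *Sst* interneurons and 46 (1.05%) at least 2-fold lower. The genes of the rule were left out of the names that follow.

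By the smaller of both libraries' differences *Elfn1* came first. It stood at 297 CPM in control and 175 CPM in WMI *Sst* interneurons, against 21.7 and 20.0 CPM in the cells without *Sst*, a log2 difference of 3.77 (control) and 3.13 (WMI). *Npy*, the neuropeptide, was 2.68 and 3.24 higher, and *Trpc6*, a cation channel gated by lipid signals, was 2.76 and 3.04 higher. *Synpr*, a protein of synaptic vesicles, differed by 2.58 and 3.03, *Shisa6*, an auxiliary subunit of AMPA receptors, by 2.50 and 2.95, and *Grin3a*, an NMDA receptor subunit, by 2.26 and 2.53. *Trhde*, which degrades a releasing hormone, differed by 2.41 and 2.17. *Reln* (2.21 and 2.53) and *Lama4* (2.49 and 3.29), whose products lie in the extracellular matrix, were also among the 10 highest.

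The lowest were genes of the cells without *Sst*. *Syt2*, the calcium sensor of fast-spiking terminals, had 1 UMI in the control and 3 in the WMI members, against 75.2 and 48.4 CPM in the cells without *Sst*. *Cemip*, a hyaluronan-degrading protein, was lower by a log2 of −3.05 and −2.17, and the noncoding *6330411D24Rik* by −2.69 and −3.10. *Tll1*, a secreted protease, and *Pde5a*, a phosphodiesterase, were lower by at least 1.98 on this scale in each library.

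Against interneurons of caudal origin, gated on at least 4 *Adarb2* UMIs, no *Lhx6* UMI and at most 1 *Sst* UMI (159 control, 222 WMI), 79 of 5809 genes (1.36%) were at least 2-fold higher in both libraries and 140 (2.41%) at least 2-fold lower. *Cort*, which encodes cortistatin, a relative of somatostatin, stood at 69.8 and 84.3 CPM in the members against 5.34 and 5.06 CPM, 3.71 and 4.06 higher on the log2 scale. *Lypd6b* (4.01 and 3.42) and *Lypd6* (3.42 and 2.45), which encode modulators of nicotinic acetylcholine receptors, were both among the 10 highest. *Cacna2d2*, a calcium channel subunit, was 2.74 and 2.83 higher, *Kctd8*, an auxiliary subunit of GABA-B receptors, 2.60 and 2.37, and *Grin3a* 2.56 and 2.31. *Prox1*, a transcription factor of caudal interneurons, had 2 and 5 UMIs in the members, against 138 and 138 CPM in this class. *Ndnf* had 1 UMI in the members of each library, against 42.7 and 35.4 CPM. *Egfr* had 4 and 9 UMIs in the members and was lower by −5.00 (−6.89 to −3.63) and −3.71 (−4.85 to −2.77). *Reln* differed from this class by a log2 of 0.18 and −0.48, with opposite signs in the libraries.

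Excitatory neurons were the most distant of the 3 comparisons by this count, with 446 of 13150 genes (3.39%) at least 2-fold higher in *Sst* interneurons in both libraries and 413 (3.14%) lower. The number of cells, and with it the number of genes that reach 100 UMIs, was larger there, so the 3 counts are not on the same footing.

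**Figure D2:**
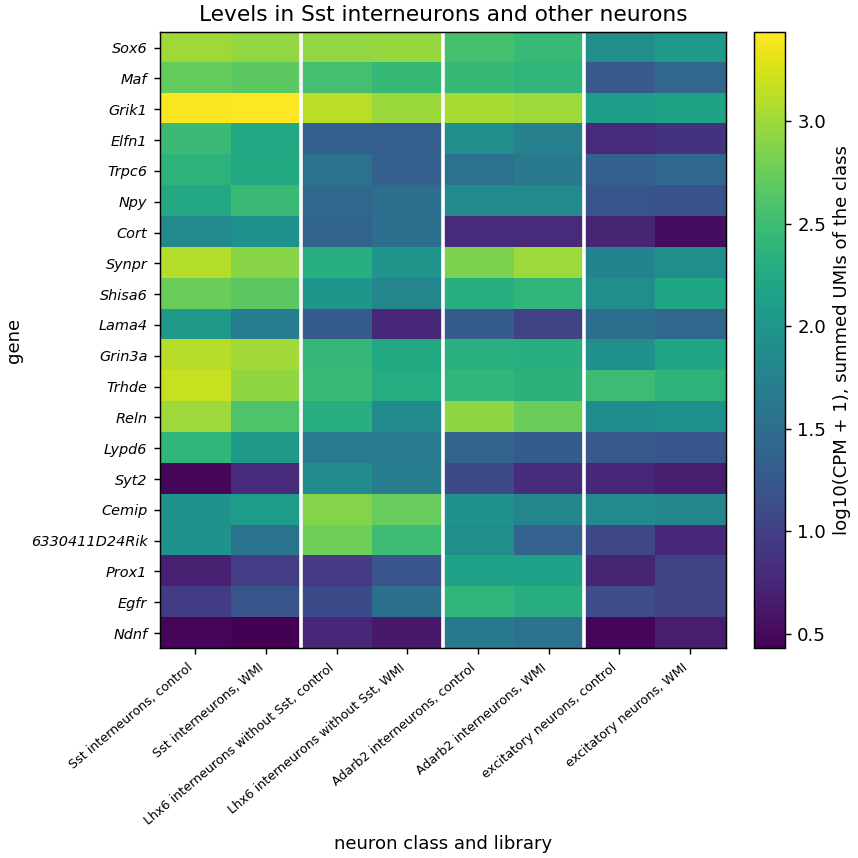
Rows are genes that the rule did not use and columns are neuron classes in each library, with colour giving log10(CPM + 1) of the summed UMIs. *Elfn1* is at 297 and 175 CPM in *Sst* interneurons and at 21.7 and 20.0 CPM in *Lhx6* interneurons without *Sst*, and *Egfr* is at 256 and 199 CPM in *Adarb2* interneurons and at 7.98 and 15.2 CPM in *Sst* interneurons.

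Of 20 neuropeptide genes, a list that includes *Sst* and *Nxph1* of the rule, 9 had at least 20 UMIs in the members. Genes of peptide processing were present in both libraries, with 153 and 183 UMIs of *Pcsk2*, a prohormone convertase, and 406 and 519 of *Pam*, which amidates peptides. The receptors of somatostatin had 4 and 2 UMIs over all 5 *Sstr* genes. *Fos*, the immediate-early gene of active neurons, had no UMI in any member, which allows up to 7.36 CPM in the control and 6.22 CPM in the WMI members.

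Markers of *Sst* subtypes were then compared among the members. To remove the effect of depth, each member was thinned to 2000 UMIs, which left out 1 control member. *Reln* was found in 63.8% of the 47 remaining control members (48.5 to 77.3) and in 34.5% of WMI members (22.5 to 48.1). *Elfn1* was found in 34.0% (20.9 to 49.3) and 25.9% (15.3 to 39.0), and *Npy* in 21.3% (10.7 to 35.7) and 37.9% (25.5 to 51.6). *Pde1a*, a calmodulin-dependent phosphodiesterase, was found in 57.4% and 46.6%, and *Calb1*, the calcium buffer calbindin, in 17.0% and 12.1%. The *Reln* intervals of the libraries do not overlap, and those of the other genes do. As background, thinned excitatory neurons held *Reln* in 11.9% and 14.0% and *Npy* in 4.21% and 2.73%. *Elfn1* stood there at 5.18 and 6.50 CPM. *Pde1a* was also found in 62.6% and 66.9% of thinned excitatory neurons, which express it.

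*Reln* and *Elfn1*, both genes of Martinotti cells, were largely carried by the same members. At 2 or more UMIs without thinning, 34 of 48 control members had *Reln*, 28 had *Elfn1* and 26 had both. In the WMI library 28 of 58 had *Reln*, 26 had *Elfn1* and 21 had both. Members with neither numbered 12 and 25. *Npy* at 2 or more UMIs was found in 17 control members, 13 of them with *Reln*, and in 23 WMI members, 15 of them with *Reln*. Depth adds to such joint counts, since a deep cell shows more of every gene.

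Long-projecting cells were rare. *Nos1*, the neuronal nitric oxide synthase, had 34 UMIs in the control members, 30 of them in 1 cell, and 41 in the WMI members, 23 of them in 1 cell. *Chodl*, the most specific gene of these cells, had 0 UMIs in the control members and 8 in the WMI members, 6 of them in 1 cell. The marker *Chrna2* of deep-layer Martinotti cells had no UMI in either library. *Calb2* had 0 and 6 UMIs, and *Hpse*, a gene of cells that target layer 4, had 12 and 12.

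**Figure D3:**
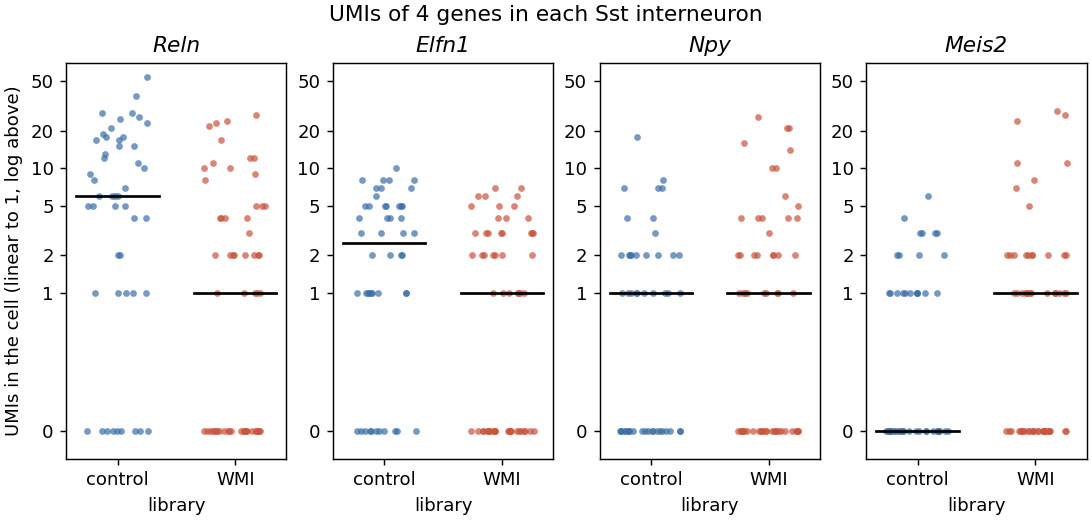
Each point is 1 *Sst* interneuron and its height the UMIs of the gene, without thinning, on an axis that is linear to 1 and logarithmic above, with a bar at the median. The *Reln* median is 6 UMIs in control and 1 in WMI members, and *Meis2* reaches 6 UMIs in the control and 29 in the WMI library.

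Levels were next compared between the WMI and the control members. Of 1823 genes with at least 100 UMIs in the members, 38 (2.08%) were at least 2-fold higher in the WMI library and 12 (0.658%) at least 2-fold lower. The median log2 ratio over these genes was −0.01, and 5% to 95% of them lay between −0.60 and 0.72. With 1 library per group these counts describe the 2 libraries. Among members with at least 4 *Sst* UMIs 31 of 1073 genes were higher and 9 lower, of which 18 and 6 were shared with the counts above, and among members without *Xist* or *Tsix* 15 and 8 were shared.

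The highest ratios belonged to genes of several kinds. *Xist*, the noncoding RNA of the inactive X chromosome, had 0 UMIs in the control members and 261 in 32 of the 58 WMI members, which is 73.6-fold higher against a floor of 3 UMIs over the control members, while the exact interval begins at a log2 ratio of 5.89. Genes of the Y chromosome were found in 45 of 48 control and 44 of 58 WMI members, and 22 WMI members held both. The sex of the mice in each library is not given in the labels, and a difference in sex cannot be told apart from the condition. *Apoe*, the lipid carrier of glia and myeloid cells, had 35 and 349 UMIs (3.08, 2.57 to 3.62), and the lysosomal proteases *Ctsd* (2.99, 2.16 to 3.94) and *Ctsb* (1.74, 1.12 to 2.41) were also higher. These ratios were not limited to the members. *Apoe* stood at 3.36 in the interneurons without *Sst*, 3.25 in *Adarb2* interneurons and 3.08 in excitatory neurons, and *Ctsd* at 2.66, 2.76 and 2.87. The mitochondrially encoded *mt-Cytb* (1.67) and *mt-Co1* (1.96) were higher in all 4 classes too.

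*C130073E24Rik*, *Htr2c*, *Meis2* and *Col25a1* were the remaining genes among the 10 highest. *C130073E24Rik*, a noncoding transcript, had 16 UMIs in 10 control members and 219 in 30 WMI members (3.53, 2.80 to 4.37). Its highest control member held 4 of these UMIs and its highest WMI member 50. *Htr2c*, a serotonin receptor, had at most 1 UMI in any control member (10 in all) and up to 14 in a WMI member (100 in all), a log2 ratio of 3.08 (2.14 to 4.18). *Meis2*, a homeobox transcription factor of caudal and striatal neurons, had 41 and 156 UMIs (1.69, 1.18 to 2.22), and 8 WMI members held 122 of the 156. Of these 8 members, 7 had at most 10 *Nxph1* UMIs and 7 had no *Elfn1* UMI, whereas the other 50 WMI members held 34 *Meis2* UMIs. With at least 5 UMIs of *Nxph1* and *Lhx6* together, a limit chosen after seeing the data, 44 control and 51 WMI members remained and the *Meis2* ratio was 0.68 (0.08 to 1.30), short of 2-fold. *Col25a1*, a transmembrane collagen of neurons, had 52 and 228 UMIs (1.89, 1.45 to 2.35), with up to 13 in a control and 45 in a WMI member. At least 2 of these 4 genes at 2 or more UMIs each were held by 4 of 48 control and 25 of 58 WMI members, a count made after the values were seen.

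The WMI to control ratio of *Col25a1* was −0.02 in the interneurons without *Sst* (−0.38 to 0.32), whereas it stood at 1.62 in *Adarb2* interneurons and 1.27 in excitatory neurons. The log2 ratios of WMI to control in the interneurons without *Sst* were 4.03 for *C130073E24Rik* and 1.77 for *Meis2*, and those in *Adarb2* interneurons were 2.03 and 0.50. The level of *Meis2* was higher in *Adarb2* interneurons (803 and 1133 CPM) than in the members (81.8 and 263 CPM). *Htr2c* had a ratio above 0 in the other classes too, at 1.91 in the interneurons without *Sst*, 1.38 in *Adarb2* interneurons and 1.42 in excitatory neurons.

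*Reln*, which encodes the extracellular protein reelin and lies on chromosome 5, was lower in the WMI library. It had 493 UMIs in 39 of 48 control members and 240 UMIs in 33 of 58 WMI members, with at most 54 and 27 UMIs in a cell, a log2 ratio of −1.28 (−1.51 to −1.05). The members overlapped widely, since 9 control and 25 WMI members had none. *Reln* was lower as well in the interneurons without *Sst* (−1.60, −2.11 to −1.12) and less so in *Adarb2* interneurons (−0.62), but not in excitatory neurons (0.14). The ratio was −0.97 among members with at least 4 *Sst* UMIs and −0.99 with 1 *Sst* UMI as the limit, both just short of 2-fold, and −1.05 among members without *Xist* or *Tsix*.

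The other genes among the 10 lowest were of several kinds. *Unc13c*, which primes synaptic vesicles, had 247 UMIs in 31 control and 98 in 28 WMI members (−1.58, −1.93 to −1.23). *Prkcb*, a protein kinase C, had 278 and 160 UMIs (−1.04, −1.33 to −0.75). *Mgat4c*, a glycosyltransferase, had 1852 and 1060 UMIs, with up to 225 in 1 control member (−1.05, −1.16 to −0.94). *Lypd6* (−1.23), *Hs3st4*, which modifies heparan sulfate (−1.17, with 23 of its 97 control UMIs in 1 cell), and *Siah3* (−1.12) were lower too, as were the noncoding *Gm26905* (−1.63), *Gm28175* (−1.41) and *9630002D21Rik* (−1.08). In the interneurons without *Sst*, the ratios of *Prkcb*, *Mgat4c*, *Lypd6* and *Hs3st4* lay between −0.09 and 0.08, while *9630002D21Rik* (−1.71), *Gm28175* (−1.23) and *Gm26905* (−0.49) were lower there too. *Siah3* stood at −0.64 in that class, with an interval that includes 0 (−1.53 to 0.17). In *Adarb2* interneurons *Mgat4c* stood at −0.70 and *Hs3st4* at −0.54.

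**Figure D4:**
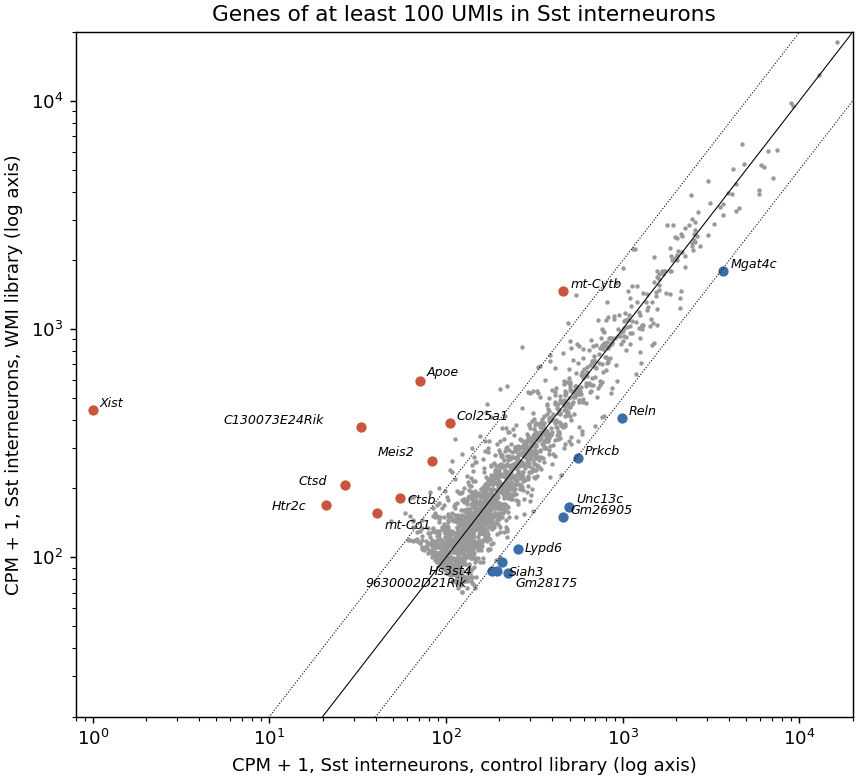
Each point is 1 of 1823 genes, with CPM + 1 in the control members on the horizontal and in the WMI members on the vertical log axis. The solid line marks equal levels and the dotted lines 2-fold differences, and the labelled genes are the 10 highest (red, *Xist* at 0 UMIs in the control members) and the 10 lowest (blue).

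**Figure D5:**
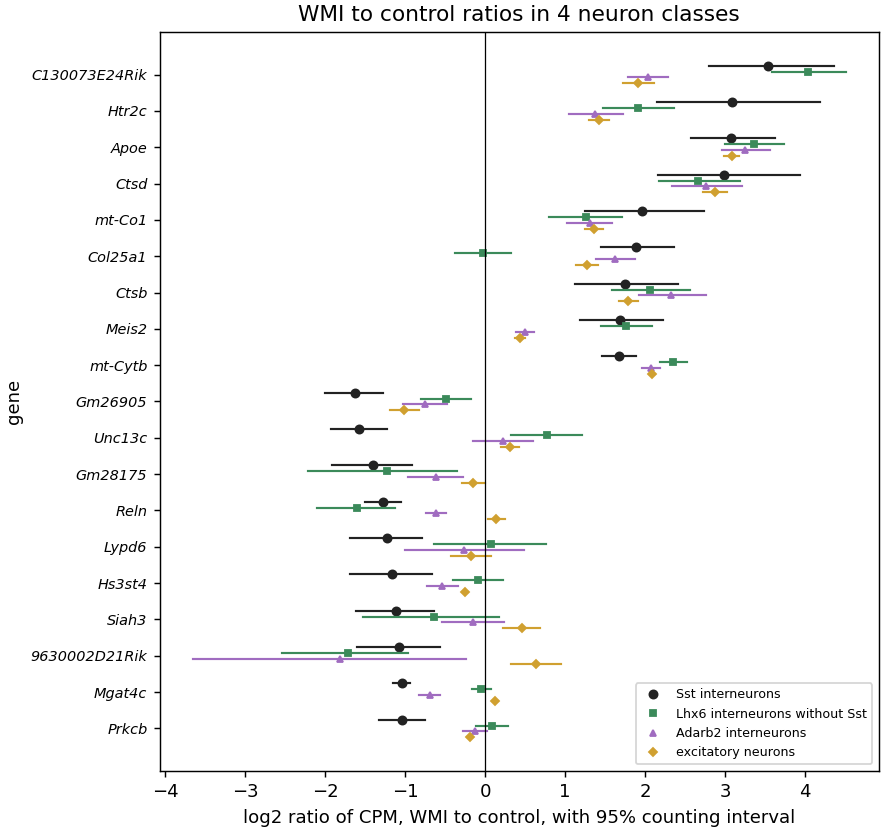
Symbols give the log2 ratio of WMI to control in 4 neuron classes and lines its 95% counting interval, for the named genes without *Xist*. *Apoe* is near 3 in all 4 classes, whereas *Unc13c* is at −1.58 in *Sst* interneurons and at 0.77 in *Lhx6* interneurons without *Sst*.

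Gene lists were described at a lower minimum of 20 UMIs, at which 6827 genes were measured, 310 (4.54%) of them at least 2-fold higher in the WMI members and 218 (3.19%) at least 2-fold lower. Genes with few UMIs have wide intervals and pass 2-fold more often. None of 26 measured genes of synaptic adhesion was 2-fold higher or lower (median log2 ratio −0.07), and the same held for 21 glutamate receptor genes (−0.09). Smaller differences went both ways, with intervals above 0 for 8 and below 0 for 11 of the adhesion genes, and for 5 and 8 of the receptor genes. Of 29 potassium channel genes 1 was higher and 1 lower (−0.04), and of 24 sodium and calcium channel genes 1 was higher (−0.03). Within these lists *Gria1*, an AMPA receptor subunit, had 1525 and 2636 UMIs (0.55, 0.46 to 0.64). *Kcnip4*, which modulates A-type potassium channels, stood at −0.60 (−0.68 to −0.52).

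Of 14 GABA receptor genes, 2 were at least 2-fold higher and none lower, with a median of 0.07. *Gabrg1* had 3 UMIs in 2 control members and 40 in 20 WMI members (a log2 ratio with an interval of 1.84 to 5.83). *Gabra2* had 90 and 243 UMIs (1.19, 0.84 to 1.56). Both encode subunits of the GABA-A receptor. Of 10 genes of GABA synthesis, transport and breakdown and of chloride transport, a list that includes *Gad1* and *Gad2* of the rule, 1 was higher and none lower (median −0.11). It was *Slc32a1*, the vesicular GABA transporter, with 13 and 34 UMIs (1.15, 0.19 to 2.19).

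Of the transcription factors of interneurons, 19 were measured, of which 2 were higher and 1 lower, with a median of 0.07. *Meis2*, whose UMIs lay mostly in the 8 WMI members described above, and *Tshz2* (56 and 195 UMIs, 54 of them in 1 WMI member, 1.56, 1.12 to 2.01) were the higher ones. *Npas1*, a repressor found in a part of these interneurons, was the lower one, with 41 UMIs in 24 control members and 15 in 8 WMI members (−1.69, −2.65 to −0.81). *Satb1*, which *Sst* cells need to mature, had 152 and 110 UMIs (−0.71, −1.08 to −0.35), and *Sox6* had 504 and 527 (−0.18, −0.36 to 0.00).

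Among genes of the *Sst* subtypes 12 were measured, with *Reln* the 1 that was 2-fold lower and a median of 0.48. *Npy* had 86 UMIs in 27 control members and 177 in 32 WMI members (0.80, 0.42 to 1.19). *Pde1a* had 207 and 400 UMIs (0.71), of which 96 lay in 1 WMI member. *Elfn1* had 149 and 104 UMIs (−0.76, −1.14 to −0.39). Of the 8 measured genes typical of basket cells, *Vwc2* (70 and 177 UMIs, 1.10) was 2-fold higher, and *Erbb4*, the neuregulin receptor, had 1223 and 2283 UMIs (0.66, 0.56 to 0.76). Whether a level shifted within the cells or the mixture of subtypes shifted between the libraries cannot be told apart from summed UMIs.

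Stress genes gave few UMIs. Of 10 measured genes of the hypoxia response, *Eno1*, a glycolytic enzyme, was 2-fold lower (19 and 7 UMIs) and the median was 0.08. Of 7 measured apoptosis genes *Bax*, which permeabilizes mitochondria, was 2-fold higher (4 and 17 UMIs, 1.85, 0.23 to 3.88). The median of that list was 0.29 and its summed log2 ratio 0.31 (0.03 to 0.60). Of 10 measured genes of protein folding stress *Pdia6* was higher (9 and 27), with a list median of 0.40 and a summed ratio of 0.29 (0.05 to 0.54). *Selenop*, a selenium carrier, had 4 and 25 UMIs and was 1 of 2 antioxidant genes that were higher among 11. Of 10 genes of immature neurons 2 were higher, *Sox11* (11 and 34 UMIs, 1.39) and *Tubb2b* (6 and 19, 1.42), whereas *Dcx* had 57 and 70 (0.05) and the median was 0.01. None of 11 genes of mature neurons was past 2-fold (median −0.01).

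The series asks about endothelin from neurons and its receptor on oligodendrocyte precursors. In the *Sst* interneurons *Edn1*, which encodes endothelin-1, had 0 UMIs in the control and 3 in the WMI members, each in a different cell. *Ednra* had 0 and 2 and *Ednrb* 3 and 4. *Ece1*, a converting enzyme that cuts the precursor, had 23 and 32 UMIs (0.23, −0.58 to 1.07). A difference in endothelin-1 was not detectable at this depth.

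RNA of other cell types moved with the comparison. Of 8 measured microglia markers 5 were at least 2-fold higher in the WMI members (median 1.31), and both measured markers of activated myeloid cells, *Apoe* and *Spp1* (1 and 27 UMIs), were. The summed ratio of the activated myeloid list was 3.05 in the members, 3.09 in the interneurons without *Sst*, 3.07 in *Adarb2* interneurons and 2.90 in excitatory neurons. The microglia list summed to 97 UMIs in the control and 216 in the WMI members, and its defining *Tmem119* had none. The astrocyte list summed to 392 and 692 UMIs (0.58), and its *Gfap*, a filament protein, had 0 and 17. *Gpc5* held 181 and 355 of these UMIs, and many of the 355 lay in 1 cell, as given in the flagged results. Of 4 measured astrocyte markers 1 was 2-fold higher, and 3 had intervals above 0. The summed ratio of this list was 0.39 in the interneurons without *Sst* but below 0 in *Adarb2* interneurons (−0.43) and excitatory neurons (−0.24). The oligodendrocyte lineage list summed to 122 and 157 UMIs. The markers of excitatory neurons (330 and 316 UMIs, log2 −0.30, −0.53 to −0.08) and of striatal projection neurons (675 and 666 UMIs, −0.26, −0.42 to −0.10) were lower in the WMI members when summed. The single genes were mixed. None of 5 measured excitatory markers was past 2-fold (median −0.003), and 2 had intervals below 0. *Pde10a* held 548 and 509 of the striatal UMIs. Of 4 measured striatal markers 1 was 2-fold higher and none lower, with intervals above 0 for 1 and below 0 for 2. Of the vascular markers none reached 20 UMIs, and *Cldn5* had none. Of 37 mitochondrially encoded genes 10 were measured and 9 were at least 2-fold higher (median 1.49), and the median mitochondrial share of a member was 0.0742% in the control and 0.348% in the WMI library.

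Over 36 markers of microglia, astrocytes, the oligodendrocyte lineage and vessels, 28 of 48 control and 53 of 58 WMI members had at least 3 UMIs. These 36 are fewer than the lists of 10 genes each hold together. Their sum was 461 CPM in the control and 762 CPM in the WMI members, below the 782 and 1167 CPM of the whole astrocyte list. In the interneurons without *Sst* it was 619 and 1059 CPM, so that it was higher in the WMI library in both classes. The part of this RNA in the ratios above was not tested. When members with 3 or more of these UMIs were left out, 20 control and 5 WMI members remained, too few for more than 284 genes to reach 100 UMIs, and 9 of these were 2-fold higher and 34 lower. In these 25 members *Reln* stood at −3.82, *Mgat4c* at −2.63, *Col25a1* at 2.42 and *mt-Cytb* at 2.29. *Siah3* and *Sst* itself turned sign in these members, with the values given in the last section.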

How the data were processed

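The authors deposited UMI counts per gene and barcode without normalization, made with Cell Ranger 6.1.1. The submitters' processing notes name Seurat and mm9, but all 55450 of 55450 gene identifiers matched GENCODE M21 on GRCm38. Members and gene lists were chosen with earlier results of these data known. Counts were summed over members per library and divided by all their UMIs (CPM). Intervals were Clopper-Pearson for shares, Poisson for levels and conditional binomial for ratios, each at 95%. A gene was called past 2-fold with at least 100 UMIs, or 20 in lists. Named genes were the 10 highest and 10 lowest WMI to control ratios and, against each interneuron class, the 10 highest and 5 lowest by the smaller of both libraries' ratios; list genes were named with their list. Excitatory neurons had at least 3 *Slc17a7* UMIs, no *Gad1* or *Gad2* UMI and at most 1 *Sst* UMI, and microglia at least 3 UMIs of *Cx3cr1*, *Csf1r* and *P2ry12* with no UMI of *Gad1*, *Gad2* or *Slc17a7*. Results for some genes are not reported here. Doublets were kept, and predicted ones (785 control and 542 WMI barcodes, 30 principal components, 30 neighbours) were removed as an alternative. The calculation of the ratio intervals was checked on simulated data for WMI to control in the members. With 200 of 1823 genes changed 4-fold, coverage was 96.5% for changed and 95.4% for unchanged genes. The simulated counts were Poisson draws, the model behind the intervals, without variation between cells. They cannot show how well the intervals cover in the measured cells. Python 3.11.15, numpy 2.4.6, scipy 1.17.1 and scikit-learn 1.9.0 were used.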

Additional observations from a re-analysis of the deposited data

Results flagged for a closer look

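Among the named and listed genes with at least 100 UMIs in the members, those whose WMI to control interval lay on one side of 0 in *Sst* interneurons and on the other side in another interneuron class were looked up, over 172 genes. The difference between classes was not tested, both values come from 1 library per group, and the intervals leave out the variation between cells. Against the interneurons without *Sst*, *Unc13c* stood at −1.58 in the members and 0.77 (0.33 to 1.21) in that class, *Npas3*, a neuronal transcription factor, at −0.54 and 0.40, *Rgs9*, a regulator of G protein signalling in striatal neurons, at −0.82 and 2.18, *Pde1a* at 0.71 and −0.36, *Clstn2* at −0.39 and 0.23, and *Cntnap5a* at −0.32 and 0.13. *Lrrtm4* (0.25 and −0.25), *Kcnh7* (0.27 and −0.33) and *Cdh13* (0.17 and −0.38) met the same condition. Of the 400 *Pde1a* UMIs of the WMI members, 96 lay in 1 cell. After thinning *Pde1a* was found in 57.4% of control and 46.6% of WMI members. The summed markers of striatal projection neurons, a list that holds *Rgs9*, stood at −0.26 in the members and 0.32 in that class, and their part in its ratio was not tested. In the members *Pde10a* alone held 548 (control) and 509 (WMI) UMIs of this list.

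Against *Adarb2* interneurons, *Npas3* stood at −0.54 in the members and 0.40 in that class, *Gpc5*, a glypican, at 0.73 and −0.43, *Il1rapl1*, a synaptic adhesion protein, at 0.58 and −0.11, and *Slc1a2*, a glutamate transporter of astrocytes, at 0.38 and −0.78. *Gpc5* and *Slc1a2* are in the astrocyte list, whose summed ratio was 0.58 in the members and −0.43 in *Adarb2* interneurons, and 122 of the 355 *Gpc5* UMIs of the WMI members lay in 1 cell. The part of astrocyte RNA was not tested. The same condition was met by *Cntn5* (0.36 and −0.21), *Grid1* (0.35 and −0.14), *Kcnh7* (0.27 and −0.59), *Cdh9* (−0.25 and 0.34), *Nrg1* (0.21 and −0.08) and *Pcdh9* (0.12 and −0.22).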

How the results depend on the processing

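No paired analysis was possible because each group has 1 library. The log2 ratio of shares, WMI to control, was 0.51 of all barcodes and 0.89 of the *Sst* and *Lhx6* interneurons. It was −0.32 and 0.29 with 1 *Sst* UMI as the limit, and −1.77 and −0.78 without members that hold RNA of other cells. That last filter was applied to the members and not to the denominators, and it removed 28 of 48 control and 53 of 58 WMI members, so the fall follows from its construction. Other limits on depth, doublets, *Sst*, mitochondrial RNA or the denominator gave values within the interval, although without predicted doublets the interval of the first ratio no longer included 0 (0.70, 0.06 to 1.35). No share was computed without members that hold *Xist* or *Tsix*, a filter that left all 48 control but 25 WMI members. In place of 38 higher and 12 lower genes, the counts were 88 and 15 with 1 *Sst* UMI (24 and 4 genes shared), 9 and 34 without members that hold RNA of other cells (3 and 3 shared), 78 and 44 at a minimum of 50 UMIs, and 1434 and 1545 with no minimum. Without the 17 predicted doublets among the members they were 38 and 14, with 28 and 10 of the genes shared. Without members that hold *Xist* or *Tsix* they were 29 and 17, with 15 and 8 shared. With at least 5 UMIs of *Nxph1* and *Lhx6*, chosen after seeing the data, they were 31 and 10, with 24 and 10 shared, and *9630002D21Rik* (−0.93) fell short of 2-fold. Against the interneurons without *Sst*, the 46 lower genes became 10 with 1 and 74 with 4 *Sst* UMIs as the limit, and the 47 higher ones 24 without members that hold RNA of other cells. That setting also gave 72 lower genes against *Adarb2* interneurons (140 before) and 79 against excitatory neurons (413 before). It turned *Siah3* to 0.46 and *Sst* itself to −0.93 (0.27 before). The cause was not tested, but that setting leaves 5 WMI members. Of the values of named genes under the alternatives, 298 stayed within their interval, 42 moved beyond it and 2 turned. The 106 members limit the precision of every rare gene.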
